A study of Drosophila melanogaster with 15 samples.

Results

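Brains of female Drosophila melanogaster larvae with an extra X chromosome were compared with brains of larvae with the usual number of X chromosomes, across all genes measured on and off the X. The comparison used 6 of the 15 RNA-seq libraries of the series, chosen by their genotype label, with 3 libraries in each group. CDXX larvae carried the compound C(1)DX, in which a pair of X chromosomes is joined, together with a free X, and so held 3 copies of X. CDXY larvae carried the same compound with a Y chromosome, held 2 copies of X and served as the control. Both groups were late L3 larvae, the last larval stage, raised at the same temperature, but CDXX brains were dissected 8 days after egg laying and CDXY brains 5 days after. Genotype, the Y chromosome and age therefore changed together and cannot be told apart in any difference described here. Each library pooled 3 brains, and dissections were repeated on separate days, marked as batches 4, 5 and 6 and used here as replicate numbers. Where another genotype is set beside these, T2L (read as C(2L)SH1/+, with 3 copies of chromosome arm 2L) was also taken at 8 days and its control C2L at 5 days. Oregon, a standard laboratory strain, has no stated age.

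In Drosophila a complex of proteins and roX RNAs raises transcription of the single male X, and females with a pair of X chromosomes do not assemble it. Larvae with an additional X are developmentally delayed and few survive. The larval brain at this stage holds dividing neuroblasts, their young neuronal progeny, functioning larval neurons and several glial types, and it grows rapidly until the steroid hormone ecdysone ends larval life.

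Total counts ran from 22.9 to 28.3 M in CDXX libraries and from 24.1 to 25.1 M in CDXY libraries, over 8990 genes. Batch 5 stood apart in both groups by polyadenylated ribosomal RNA fragments, which took 6.20% of counts in CDXX and 6.49% in CDXY, against 0.641% and 3.55% in CDXX and 0.768% and 3.16% in CDXY for batches 4 and 6. Mitochondrially encoded transcripts took 6.67 to 7.77% of counts in CDXX libraries and 4.84 to 6.10% in CDXY libraries, so those ranges did not overlap. Levels are given below as CPM (counts relative to library size, with TMM scaling), as mean ± SD over 3 libraries. A gene is said to have risen or fallen where the edgeR quasi-likelihood test gave an adjusted p under 0.05, and fold changes are log2 values of CDXX over CDXY.

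The tissue label was checked against marker genes of the cell types a dissected brain could hold. Neuronal markers summed to 5464 to 5971 CPM in CDXX libraries and 5113 to 6846 CPM in CDXY libraries, and neuroblast markers to 5172 to 6499 CPM in CDXX and 3658 to 8189 CPM in CDXY. Both ranges overlapped between the groups, and no marker on any list had 0 counts in a whole group. Among the 10 glial markers the X-linked Gs2 had the highest level and so weighed most in their sum. The median log2 fold change was 0.13 for all 10 and 0 for the 8 off the X. These 10 glial markers summed to 2523 to 2676 CPM in CDXX and 1060 to 1444 CPM in CDXY, without overlap. Of them 4 rose and 1 fell, with 2 higher without CDXX replicate 4 or 6 or CDXY replicate 5, while repo, the transcription factor shared by lateral glia, was at 147 ± 27.8 CPM in CDXX and 127 ± 22.7 CPM in CDXY and did not pass the test. Whether fewer or more cells of a type, or less or more RNA per cell, lie behind a level cannot be told apart in pooled tissue. Muscle markers summed to 477 to 989 CPM in CDXX and 409 to 471 CPM in CDXY, and 10 of 16 rose, with CDXX replicate 5 highest and 6 rises without CDXX replicate 5 or CDXY replicate 4 or 5. Hemocyte markers summed to 421 to 2576 CPM in CDXX, with replicate 6 highest, and 159 to 696 CPM in CDXY. Salivary gland markers summed to 38.2 to 47.1 CPM in CDXX and 141 to 149 CPM in CDXY, and 6 of 9 fell, 3 of them without CDXX replicate 6. Of 13 disc markers 1 rose and 6 fell, at sums of 690 to 818 CPM in CDXX and 762 to 873 CPM in CDXY. Fat body, ring gland and tracheal sums overlapped between the groups, and gut markers summed to 33.3 to 70.6 CPM in CDXX and 75.4 to 107 CPM in CDXY. The part of these tissues in the results below was not tested, and their sums are repeated where they move with a gene group.

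Of 8981 genes tested, 3942 (43.9%) changed, 2071 (23.1%) upward and 1871 (20.8%) downward, and 957 (10.7%) changed by at least 2-fold. These shares are the background for every count below. On the X chromosome 901 of 1564 genes (57.6%) rose and 38 (2.43%) fell. Off the X the balance was the other way, with 1160 of 7366 genes with a known position (15.7%) higher and 1821 (24.7%) lower. The largest departures were also asymmetric off the X, where 517 genes rose and 203 fell by at least 2-fold among those called. The count of calls was 2876 without CDXY replicate 5, of which 2839 were among the 3942, and 3106 without CDXX replicate 6, of which 2976 were.

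The rise of X-linked genes was broad. Their median log2 fold change was 0.45, with the middle of the distribution between 0.18 and 0.80, while the median off the X was -0.08. The difference of these medians was 0.529, and within batches 4, 5 and 6 it was 0.548, 0.473 and 0.522. A change in proportion to 3 copies over 2 would be 0.585. Measured against the Oregon mean, X-linked genes stood above other genes by 0.561, 0.529 and 0.525 in the CDXX libraries and by 0.008, 0.046 and -0.003 in the CDXY libraries. All CDXX libraries lay above all CDXY libraries, and the two-sided exact permutation test gave p = 0.1, the smallest that 3 libraries against 3 allow. The share of protein-coding counts on X was 24.5%, 24.3% and 23.5% in CDXX and 18.7%, 19.1% and 18.4% in CDXY (exact permutation p = 0.1, again the smallest possible). With ribosomal RNA pseudogenes of X included, the shares were 24.0%, 27.8% and 25.0% in CDXX and 18.6%, 23.6% and 20.2% in CDXY, with batch 5 highest in both groups.

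The rise was present along the whole chromosome. When X genes were cut in gene order into 12 groups of 130 or 131, the median log2 fold change of a group lay between 0.34 and 0.55. The lowest was the group nearest the centromere, with starts from 19.9 to 23.5 Mb, and the highest the one at the distal tip, with starts from 0.1 to 1.9 Mb. In every group at least 59 genes rose and at most 5 fell. Individual genes spread widely around the median: 704 of 1564 (45%) lay between 0.292 and 0.877, 325 (20.8%) between 0 and 0.292, 190 (12.1%) between -1 and 0, and 22 (1.4%) at or below -1. The gap between X and the other chromosomes was much the same at low and high levels. Among genes up to 27.3 CPM the X median was 0.60 against 0.05 off the X, among those from 27.3 to 84.4 CPM it was 0.47 against -0.12, and above 84.4 CPM it was 0.33 against -0.22.

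**Figure D1:**
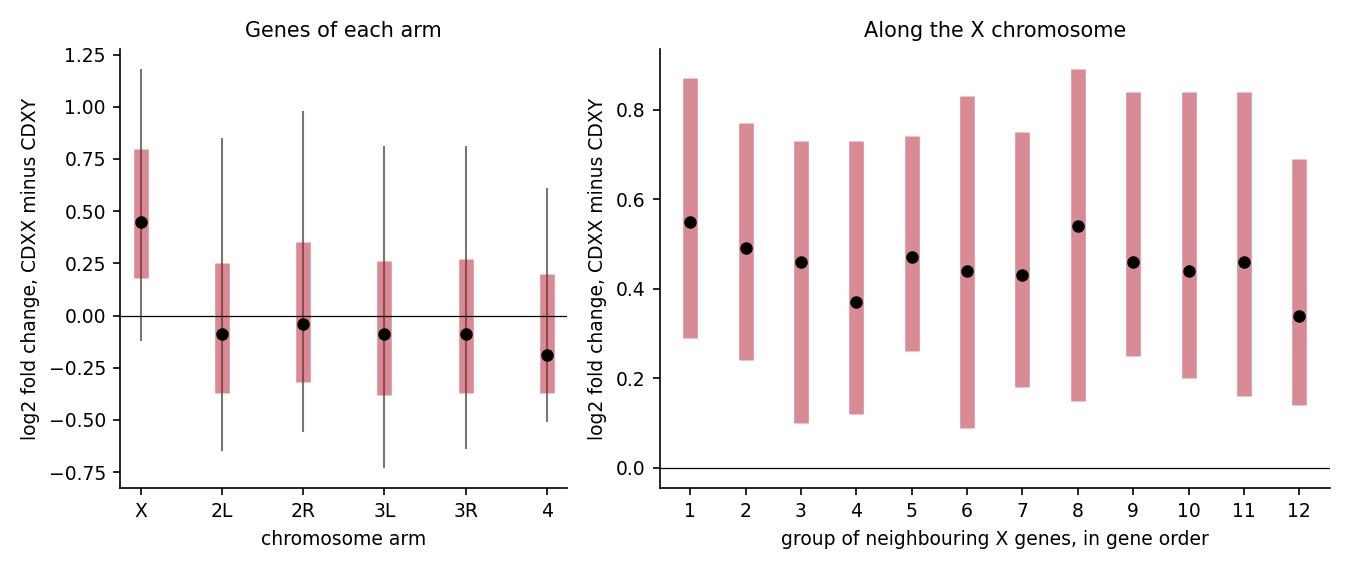
Log2 fold change of CDXX over CDXY for the genes of each chromosome arm (left) and for 12 groups of neighbouring X genes in gene order (right). Points are medians and thick bars run from the 25th to the 75th percentile. Thin lines, in the left panel only, run from the 10th to the 90th. The X stands at 0.45 and the other arms between -0.19 and -0.04, and every group along the X lies between 0.34 and 0.55.

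Several X genes moved far beyond the chromosome's median. Among those averaging at least 5 CPM without overlap between groups, the largest rise was that of CG5162, at 17.2, 13.2 and 31.1 CPM in CDXX and 0.160, 0.409 and 0.863 CPM in CDXY, with a log2 fold change of 5.41 ± 1.15 (SE, edgeR QL adjusted p = 0.00311). Tsf1 (FBgn0022355, X:18387084-18390344, dm6), which encodes the secreted iron carrier transferrin, was at 2164, 1645 and 1578 CPM in CDXX replicates 4, 5 and 6 and at 76.0, 48.8 and 91.9 CPM in CDXY. The groups were far apart, and the log2 fold change was 4.64 ± 0.49 (SE), at an adjusted p of 0.000129 in edgeR's QL test. The uncharacterised CG15784 (FBgn0029766, X:5429571-5432526) was at 210, 173 and 260 CPM in CDXX and 13.4, 10.6 and 13.6 CPM in CDXY, a log2 fold change of 4.09 ± 0.31 (SE, edgeR QL adjusted p = 4.96e-05). CG8051 averaged 14.4 ± 1.95 CPM in CDXX and 1.00 ± 0.409 CPM in CDXY, and CG2680 averaged 35.4 ± 21.7 CPM in CDXX and 2.76 ± 1.57 CPM in CDXY. The muscle troponin I gene wupA was at 5.10, 26.2 and 6.67 CPM in CDXX and 0.600, 0.450 and 2.10 CPM in CDXY. The groups did not overlap, but the edgeR QL adjusted p was 0.0634, 0.0534 and 0.0605 without CDXX replicate 5, CDXY replicate 4 and CDXY replicate 5. It belongs to the muscle markers, which were highest in the same library.

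The X genes that fell stood against the trend of their chromosome. The largest fall by the same limits was that of Sgs4, a salivary glue protein gene and one of the salivary gland markers, at 0.746, 1.10 and 0.339 CPM in CDXX and 17.4, 5.73 and 14.6 CPM in CDXY (log2 fold change -4.12 ± 1.13, SE, edgeR QL adjusted p = 0.0115). Hr4 (FBgn0264562, X:1941940-2007956), a nuclear receptor induced by ecdysone, was at 5.30, 23.6 and 4.79 CPM in CDXX and 187, 213 and 74.8 CPM in CDXY, so the groups did not overlap. Its log2 fold change was -3.83 ± 1.09 (SE, edgeR QL adjusted p = 0.0138), and the adjusted p was 0.0526 and 0.0531 without CDXX replicate 4 or 6. Ilp6, an insulin-like peptide of the larval fat body and glia, averaged 20.7 ± 7.52 CPM in CDXX and 51.2 ± 6.56 CPM in CDXY, and it fell under every alternative tried. CG12539, CG3823 and prage were also among the largest falls, but each lost its call without CDXX replicate 4, CDXX replicate 6 or CDXY replicate 4, and CG12539 and prage also without CDXY replicate 5. With batch as a block the edgeR QL adjusted p was 0.0642 for CG12539 and 0.0675 for CG3823, and both also lost their call in the fit of only these groups.

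Multi-protein complexes have subunits encoded on several chromosomes. In several of them the X-linked subunits stood above the others in CDXX, as X genes did as a whole (median 0.45 on X and -0.08 off it). One such case was general transcription. Of 39 subunits of Mediator and RNA polymerase II, all 3 on X rose (median 0.30) and 22 of 36 elsewhere fell while none rose (median -0.36). MED22 on X was at 49.4, 43.2 and 42.9 CPM in CDXX and 30.0, 31.3 and 31.0 CPM in CDXY. MED23 (FBgn0034795, 2R:22888928-22894425), a tail subunit of Mediator, was at 34.5, 38.1 and 39.6 CPM in CDXX and 62.2, 64.2 and 67.8 CPM in CDXY. Each gene's groups were well separated, in opposite directions. The log2 fold change of MED23 was -0.79 ± 0.09 (SE, edgeR QL adjusted p = 0.000164), MED15 and MED14 fell by 0.57 and 0.47, and Polr2A, the largest polymerase subunit, rose by 0.19 with a call that ended in 5 of the 6 analyses leaving out a library and in the fit of only these groups. The count of subunits that fell was 13 without CDXX replicate 6 and 14 without CDXY replicate 5. Rises numbered 1 without CDXY replicate 4 and 2 without CDXX replicate 5 or 6 or CDXY replicate 5 or 6. Without ribosomal RNA genes Polr2A also lost its call (edgeR QL adjusted p = 0.0506).

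Core splicing proteins divided by chromosome, while among chromatin proteins the falls lay almost wholly off the X. Of 32 core spliceosome proteins, 2 rose, both on X, and 17 fell, all off the X, with medians of 0.22 on X and -0.36 elsewhere. The X-linked splicing factor crn averaged 110 ± 10.6 CPM in CDXX and 68.1 ± 4.84 CPM in CDXY, while Prp8, at the catalytic centre, averaged 258 ± 14.6 CPM in CDXX and 364 ± 22.4 CPM in CDXY and Sf3a1 averaged 78.4 ± 5.32 CPM in CDXX and 109 ± 2.99 CPM in CDXY. Of 34 Polycomb, Trithorax and SWI/SNF proteins, 3 rose and 21 fell. Off the X 2 of 30 rose and 20 fell (median -0.35), and of the 4 on X 1 rose and 1 fell (median -0.09). Within the SWI/SNF remodeller, the X-linked subunit Bap60 averaged 287 ± 24.7 CPM in CDXX and 220 ± 17.4 CPM in CDXY. The scaffold mor (FBgn0002783, 3R:15968134-15972913) was at 233, 231 and 224 CPM in CDXX and 334, 358 and 337 CPM in CDXY, and the ATPase brm averaged 248 ± 10.8 CPM in CDXX and 331 ± 7.21 CPM in CDXY. The X gene that fell was the Polycomb gene ph-d (-0.27, edgeR QL adjusted p = 0.0428), a call lost with scaling factors from genes off X and 2L (0.115), with batch as a block (0.0523), in the fit of only these groups and without replicate 5 or 6 of either group.

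Phenylalanyl-tRNA synthetase joins 2 kinds of subunit from different chromosomes. The X-linked alpha-PheRS (FBgn0030007, X:8143904-8145602) was at 94.8, 102 and 101 CPM in CDXX and 68.7, 71.1 and 68.9 CPM in CDXY, and beta-PheRS (FBgn0039175, 3R:24250460-24252679) was at 57.1, 68.5 and 63.0 CPM in CDXX and 82.4, 81.2 and 85.1 CPM in CDXY. Their log2 fold changes were 0.51 ± 0.09 and -0.40 ± 0.08 (SE, edgeR QL adjusted p = 0.00125 and 0.0028), and in neither did the groups overlap. All 4 aminoacyl-tRNA synthetase genes on X rose, LysRS by 0.73, and of 19 elsewhere 1 rose and 6 fell. That count of falls was 1 with scaling factors from genes off X and 2L and between 1 and 3 without CDXX replicate 4 or 6 or CDXY replicate 4 or 5. MetRS (-0.26) lost its call with those factors and without CDXX replicate 4 or 5 or CDXY replicate 5. In the CCT chaperonin, CCT6 on X rose by 0.31, with a call that ended without CDXX replicate 5, CDXY replicate 4 or CDXY replicate 5. Of 6 subunits off the X, 5 fell, CCT1 by 0.41, and the fallen subunits numbered 2 without CDXX replicate 4 or 6 and 3 without CDXY replicate 5.

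In the mitochondrial ribosome all 12 X-linked proteins rose (median 0.59), against 6 higher and 1 lower of 61 elsewhere (median 0.08). mRpL49 averaged 48.4 ± 2.79 CPM in CDXX and 26.0 ± 1.8 CPM in CDXY and mRpS14 averaged 32.5 ± 1.19 CPM in CDXX and 18.5 ± 1.18 CPM in CDXY. For mitochondrial protein import, all 4 genes on X rose, and 2 of 11 elsewhere. Tim8, a small chaperone of the space between the membranes, rose by 0.89, and Tom40, the pore of the outer membrane, rose by 0.42 (edgeR QL adjusted p = 0.00013 and 0.00259).

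**Figure D2:**
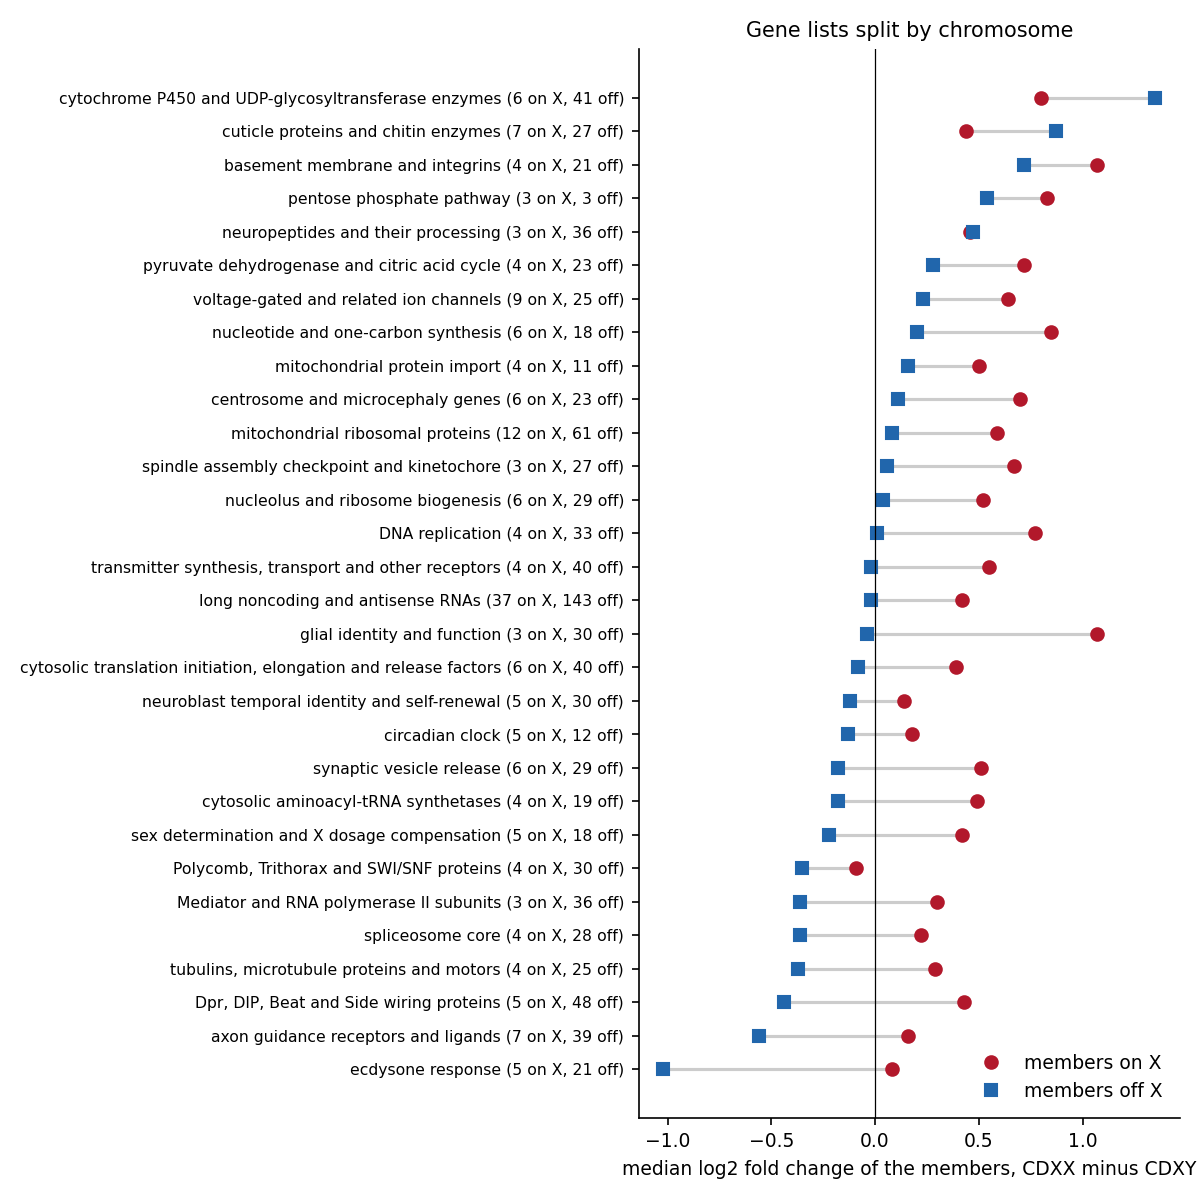
Median log2 fold change of CDXX over CDXY for the members of each gene list on X (circles) and off X (squares), for lists with at least 3 members of each kind. Off-X medians run from -1.02 for the ecdysone response to 1.35 for P450 and UGT enzymes. Mediator and polymerase II has an X median above 0 and an off-X median below it. The Polycomb, Trithorax and SWI/SNF list has both medians below 0 (-0.09 on X and -0.35 off X).

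The growth regulator Myc (FBgn0262656, X:3373159-3391697), a transcription factor that drives ribosome production and cell growth, was at 366, 467 and 442 CPM in CDXX and 135, 139 and 160 CPM in CDXY. The groups were far apart and the log2 fold change of 1.55 ± 0.17 (SE, edgeR QL adjusted p = 0.000129) was well above the X median. Of 35 nucleolar and ribosome biogenesis genes, 5 of 6 on X rose, Myc itself and bys (0.61) among them, and 1 of 29 elsewhere did, Non1, a nucleolar GTPase at 829 ± 201 CPM in CDXX and 393 ± 42.1 CPM in CDXY. Of 46 translation factors 10 rose and 9 fell, near the shares of all genes (23.1% higher and 20.8% lower). Of the rises 4 were among the 6 members on X. The falls numbered 5 with scaling factors from genes off X and 2L. The X-linked initiation factors eIF2alpha and eIF2Bbeta rose by 0.48 and 0.60. The poly(A)-binding protein pAbp, on 2R, averaged 6935 ± 548 CPM in CDXX and 4286 ± 221 CPM in CDXY. The release factor eRF1 fell by 0.44, and the elongation factor eEF1alpha2 (FBgn0000557, 3R:31738468-31743306), the form used in neurons and muscle, was at 1049, 1012 and 765 CPM in CDXX and 1925, 2619 and 2128 CPM in CDXY. Its log2 fold change was -1.24 ± 0.18 (SE, edgeR QL adjusted p = 0.000372), with no overlap.

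Genes of the division machinery also divided by chromosome. Of 37 replication genes, all 4 on X rose and of 33 elsewhere none rose and 1 fell, and 7 of the 37 rose with the batch as a block or when scaling used the arms other than X and 2L. The 4 X genes encode subunits of the replicative helicase, Mcm3 (0.46), Mcm6 (0.71), Cdc45 (0.82) and Psf3 (0.95), the last at 12.8 ± 0.974 CPM in CDXX and 6.63 ± 0.427 CPM in CDXY. The call of Mcm3 ended whichever library was left out (edgeR QL adjusted p 0.0657 to 0.139). Of 30 kinetochore and spindle checkpoint genes, 6 rose and 2 fell, and 3 rose without CDXX replicate 6. Ndc80 (FBgn0030500, X:13609671-13612062), which holds kinetochores to microtubules, was at 42.4, 34.9 and 40.7 CPM in CDXX and 20.2, 17.6 and 22.0 CPM in CDXY, and Zw10, which brings checkpoint proteins to the kinetochore, rose by 0.67. The checkpoint protein Mad1, on 2R, was at 52.9, 56.2 and 53.7 CPM in CDXX and 79.0, 82.1 and 79.2 CPM in CDXY, a log2 fold change of -0.56 ± 0.09 (SE, edgeR QL adjusted p = 0.000494). These genes were thus separated between groups in every library, Ndc80 and Zw10 upward and Mad1 downward.

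Among 29 centrosome and microcephaly genes, 5 of 6 on X rose, against 57.6% of all X genes. Elsewhere 6 of 23 fell, a share near the 24.7% of all genes off the X, and their median was 0.11. The gamma-tubulin ring proteins Grip128 and Grip91 rose by 0.90 and 0.55, and off the X Plp, the fly pericentrin, rose by 0.82. Wdr62, whose human counterpart is mutated in microcephaly, averaged 94.6 ± 11.9 CPM in CDXX and 137 ± 7.12 CPM in CDXY. Lis-1, a dynein regulator whose human counterpart is mutated in lissencephaly, averaged 221 ± 5.91 CPM in CDXX and 320 ± 23.2 CPM in CDXY. The spindle orientation protein pins averaged 62.5 ± 6.13 CPM in CDXX and 103 ± 9.05 CPM in CDXY. All these groups were without overlap.

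Off the X, the changes of at least 2-fold with the lowest adjusted p-values were spread over functions. Upward were Adi1, an enzyme of the methionine salvage pathway (27.5 ± 3.18 CPM in CDXX and 13.7 ± 0.715 CPM in CDXY), and the chitinase-like imaginal disc growth factors Idgf3 (270 ± 54.1 CPM in CDXX and 92.5 ± 10.7 CPM in CDXY) and Idgf2 (144 ± 42.5 CPM in CDXX and 32.9 ± 8.66 CPM in CDXY). CG1674, CG13229, CG12355, Kaz1-ORFB and SP1173 rose as well, by 1.54 to 2.28. Downward were eEF1alpha2, the photoreceptor axon guidance receptor gogo (92.3 ± 8.82 CPM in CDXX and 191 ± 8.50 CPM in CDXY), the Patched-related gene Ptr (26.9 ± 2.81 CPM in CDXX and 57.0 ± 4.93 CPM in CDXY), and the BTB-domain gene twz (33.9 ± 4.79 CPM in CDXX and 84.4 ± 8.70 CPM in CDXY). CG10479, CG7650 and bip1 fell by 1.04 to 1.40, and CG14598 fell by 3.00, to 3.85 ± 1.8 CPM in CDXX against 30.6 ± 12.7 CPM in CDXY. The edgeR QL adjusted p-values of these 16 genes lay between 0.000104 and 0.000486. Exons of CG13229, Kaz1-ORFB, CG7650 and bip1 overlap those of a neighbour or an antisense gene, so their reads may be shared.

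Genes for the wiring of neurons fell in CDXX. Of 46 axon guidance receptors and ligands, 26 fell and 3 rose, and the 3 were all on X. Off the X 26 of 39 fell (median -0.56), against 24.7% of all genes there. The receptor otk (FBgn0004839, 2R:12001473-12019846), which binds plexin and Wnt signals, was at 197, 213 and 180 CPM in CDXX and 423, 393 and 334 CPM in CDXY. Its groups were well apart, with a log2 fold change of -0.96 ± 0.13 (SE, edgeR QL adjusted p = 0.000232). The netrin receptor fra averaged 167 ± 15.7 CPM in CDXX and 260 ± 14.5 CPM in CDXY, the receptor phosphatase Ptp69D 119 ± 10.3 CPM in CDXX and 194 ± 12.2 CPM in CDXY, and ena, which extends actin filaments in growth cones, 154 ± 19.7 CPM in CDXX and 272 ± 28.9 CPM in CDXY. On X the adhesion molecule Nrg rose to 1098 ± 77.7 CPM in CDXX, against 663 ± 32.4 CPM in CDXY. Fas2, another neural adhesion molecule, rose by 0.44 with a call that ended without CDXX replicate 5 or any CDXY replicate.

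Of 53 immunoglobulin-type wiring proteins of the Dpr, DIP, Beat and Side families, which match synaptic partners, 22 fell and 3 rose. DIP-epsilon fell by 1.06, beat-IIa averaged 47.0 ± 5.93 CPM in CDXX and 93.9 ± 7.80 CPM in CDXY, and side-VII 77.8 ± 3.78 CPM in CDXX and 147 ± 23.4 CPM in CDXY. Against this direction dpr5 rose by 1.07. The number that fell depended on single libraries: it was 9 without CDXX replicate 6 or CDXY replicate 5 and 13 without CDXX replicate 4.

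Among axonal transport genes more fell than rose. Of 29 tubulin, microtubule and motor genes 5 rose and 15 fell, and 9 fell without CDXX replicate 6 or CDXY replicate 5 while the rises numbered 1 and 2. The subunits of kinesin-1 fell together, Khc to 166 ± 14.8 CPM in CDXX against 271 ± 20.1 CPM in CDXY and Klc to 142 ± 19.3 CPM in CDXX against 219 ± 15.0 CPM in CDXY. The X-linked dynein intermediate chain sw rose by 0.35. Of 35 vesicle release genes, 4 of 6 on X rose and 7 of 29 elsewhere fell, a share near the 24.7% of all genes off the X. The active zone organiser Liprin-alpha fell by 0.60, and Syt4, a calcium sensor family member, was at 235, 205 and 229 CPM in CDXX and 332, 399 and 336 CPM in CDXY. Tomosyn, an X-linked inhibitor of vesicle fusion, averaged 176 ± 31.4 CPM in CDXX and 93.1 ± 10.6 CPM in CDXY. The rises on this list numbered 1 without CDXX replicate 6 or CDXY replicate 4.

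More ion channel genes rose than fell, many of them on X. Of 34 genes 13 rose and 2 fell, and 7 in all rose without CDXY replicate 4. On X 7 of 9 rose, against 57.6% of all X genes. Elsewhere 6 of 25 rose, against 15.7% of all genes off the X. The X-linked potassium channels eag and SK averaged 54.2 ± 5.33 and 204 ± 6.56 CPM in CDXX and 26.4 ± 4.81 and 124 ± 15.0 CPM in CDXY. The related channel Elk on 2R was one of the 2 falls (-0.93), but its call ended without CDXX replicate 4 or 5 or CDXY replicate 5. Of 9 nicotinic acetylcholine receptor subunits, nAChRalpha3 on X rose by 0.69 and nAChRalpha2 fell by 0.54, the call of nAChRalpha2 ending without CDXX replicate 5 or 6 or CDXY replicate 5.

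Of 44 genes for transmitter synthesis, transport and reception, 4 rose and 6 fell. Ace, the acetylcholinesterase that clears acetylcholine, was at 106, 123 and 125 CPM in CDXX and 258, 322 and 240 CPM in CDXY, a log2 fold change of -1.21 ± 0.23 (SE, edgeR QL adjusted p = 0.00149). Gad1, which makes GABA, was at 203, 126 and 337 CPM in CDXX and 42.9, 56.6 and 80.3 CPM in CDXY, with an edgeR QL adjusted p of 0.0116 that rose to 0.051 without CDXX replicate 6. On the octopamine side, Tbh, which makes octopamine, averaged 54.8 ± 6.41 CPM in CDXX and 20.2 ± 4.95 CPM in CDXY. The octopamine receptor Octbeta2R averaged 46.6 ± 7.33 CPM in CDXX and 19.4 ± 1.57 CPM in CDXY. The rises numbered 2 without CDXX replicate 6 and 7 by DESeq2, and the falls 3 without replicate 5 of either group.

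Of 39 neuropeptide genes 12 rose and 2 fell. Capa (FBgn0039722, 3R:29912991-29914346), whose peptides act on the renal tubules, was at 156, 109 and 157 CPM in CDXX and 32.7, 48.1 and 48.1 CPM in CDXY, a log2 fold change of 1.71 ± 0.24 (SE, edgeR QL adjusted p = 0.000336). Orcokinin averaged 125 ± 24.3 CPM in CDXX and 33.1 ± 12.2 CPM in CDXY. Ptth, the brain peptide that starts ecdysone synthesis in the ring gland, was at 4.87, 9.93 and 2.68 CPM in CDXX and 19.9, 12.8 and 11.9 CPM in CDXY. Its log2 fold change was -1.36 ± 0.39 (SE, edgeR QL adjusted p = 0.0145), and the adjusted p was above 0.05 without CDXX replicate 4 or CDXY replicate 4 and in the fit of only these groups. The peptide genes that rose numbered 5 without CDXY replicate 4 and 7 without CDXX replicate 6.

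Progenitor lists had medians near 0, at 0.08 for Notch pathway genes and -0.09 for neuroblast temporal and self-renewal genes. In both the share of genes called was near the 43.9% of all genes. Of 29 Notch pathway genes 4 rose and 8 fell, and 7 rose without CDXX replicate 6. The receptor N (FBgn0004647, X:3134870-3172221) was at 297, 382 and 376 CPM in CDXX and 242, 175 and 194 CPM in CDXY, and the Bearded-family gene Ocho rose to 16.8 ± 2.51 CPM in CDXX, against 3.92 ± 1.58 CPM in CDXY. Proteases that cut the receptor were among the falls, kuz at 207 ± 63.6 CPM in CDXX and 353 ± 20.6 CPM in CDXY and the gamma-secretase subunit Nct at 82.2 ± 10.2 CPM in CDXX and 112 ± 7.77 CPM in CDXY. Of 35 neuroblast temporal and self-renewal genes, 4 rose and 9 fell, and all 9 were among the 30 off the X, where 24.7% of all genes fell. The falls included erm, which restricts intermediate progenitors (43.8 ± 15.0 CPM in CDXX and 94.1 ± 5.89 CPM in CDXY), and the transcription factors dac (-0.79) and D (-0.94). None of the 10 Hox genes and cofactors was called in the edgeR fit over all libraries, where 1 had an unadjusted p under 0.05. DESeq2 and the edgeR fit of only these groups each called 1 lower, and edgeR called 1 higher without CDXX replicate 5.

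Glial genes moved both ways, at shares near those of all genes (23.1% higher and 20.8% lower). Of 33 glial identity and function genes 7 rose and 7 fell. The rises numbered 4 without CDXY replicate 5 and the falls 4 without CDXX replicate 6. The X-linked glutamine synthetase Gs2, which recycles glutamate, was at 1070, 1050 and 1193 CPM in CDXX and 224, 157 and 279 CPM in CDXY. CG6126 averaged 80.8 ± 18.3 CPM in CDXX and 5.10 ± 4.27 CPM in CDXY. The septate junction protein Nrx-IV fell to 250 ± 20.6 CPM in CDXX against 385 ± 34.9 CPM in CDXY, axo to 56.2 ± 3.41 CPM in CDXX against 113 ± 12.3 CPM in CDXY, and wrapper, a glial surface protein, to 83.6 ± 5.48 CPM in CDXX against 107 ± 6.99 CPM in CDXY. The glutamate transporter Eaat2 fell by 0.89, while dmGlut, one of 5 genes that rose on a list of 13 for amino acid transport (1 without CDXY replicate 5), rose to 185 ± 56.0 CPM in CDXX against 36.6 ± 15.2 CPM in CDXY.

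Genes that supply and burn sugar rose. Of 17 genes for sugar transport, trehalose and glycogen, 12 rose and 2 fell (median 1.70), and of 14 glycolytic genes 12 rose and none fell (median 1.42). The trehalose transporter Tret1-1 (FBgn0050035, 2R:11665768-11674782), through which blood sugar enters the glia of the blood-brain barrier, was at 106, 115 and 98.1 CPM in CDXX and 12.9, 15.4 and 27.9 CPM in CDXY, and its groups were far apart (log2 fold change 2.50 ± 0.45, SE, edgeR QL adjusted p = 0.00134). UGP, an enzyme of glycogen synthesis, rose by 1.28, and the sugar transporter Glut1 fell by 0.70. Gapdh2 averaged 2073 ± 738 CPM in CDXX and 419 ± 110 CPM in CDXY. In the pentose phosphate pathway 5 of 6 genes rose, Zw, its first enzyme, by 0.84 and the transketolase CG8036 by 0.63, with CG8036 at adjusted p = 0.0579 (edgeR QL) without CDXY replicate 5. Without that library the glycolytic rises numbered 7 and those of the pentose pathway 2, and the pentose pathway rises numbered 3 without CDXX replicate 6.

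In the citric acid cycle 15 of 27 genes rose and 1 fell, with 12 of the rises off the X. Idh3a averaged 388 ± 31.3 CPM in CDXX and 202 ± 13.6 CPM in CDXY, Fum1 300 ± 30.2 CPM in CDXX and 169 ± 12.8 CPM in CDXY, and the cytosolic malate dehydrogenase Mdh1 192 ± 23.3 CPM in CDXX and 94.5 ± 10.9 CPM in CDXY. Of 19 subunits of the V-ATPase, the proton pump of lysosomes and vesicles, 13 rose, among them VhaAC39-1 (0.82) on X and Vha100-2 (1.84), and 7 or 8 rose without CDXY replicate 5 or CDXX replicate 6. Its paralogue Vha100-1, the neuronal form, was the 1 that fell (-0.28), a call lost with scaling factors from genes off X and 2L. Of 17 iron genes 9 rose and none fell, among them Tsf1 and IscU, the scaffold for iron-sulphur clusters (89.2 ± 9.37 CPM in CDXX and 51.0 ± 2.05 CPM in CDXY), and 5 rose without CDXY replicate 5. All 6 nucleotide and one-carbon genes on X rose, Ahcy by 0.86 and Shmt by 0.95, against 3 of 18 elsewhere.

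Fat metabolism had no common direction, with 6 of 34 genes higher and 6 lower. Desat1, which makes unsaturated fatty acids, averaged 456 ± 135 CPM in CDXX and 190 ± 37.0 CPM in CDXY. The lipase bmm fell to 10.0 ± 0.549 CPM in CDXX against 17.8 ± 1.82 CPM in CDXY, the fatty acid binding protein fabp to 312 ± 102 CPM in CDXX against 613 ± 22.1 CPM in CDXY, and Lpin, which makes diacylglycerol, to 158 ± 1.31 CPM in CDXX against 245 ± 25.5 CPM in CDXY.

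Ecdysone response genes were lower as a group off the X, where 12 of 21 fell and 4 rose (median -1.02), against 24.7% of all genes there lower. On and off X 5 rose, and 2 without CDXY replicate 5. Falls on and off X numbered 13, and 9 without CDXX replicate 4 or 6 or CDXY replicate 4. Against Oregon, 6 of the 26 were lower in CDXX and 4 higher, beside 16.6% lower and 18.7% higher among all genes. Besides Hr4, the nuclear receptor Hr39 fell by 1.02. The transcription factor vri (FBgn0016076, 2L:5288944-5311223), an ecdysone-responsive repressor that also works in the circadian clock, was at 32.5, 66.9 and 42.2 CPM in CDXX and 196, 285 and 188 CPM in CDXY. Its log2 fold change was -2.24 ± 0.45 (SE, edgeR QL adjusted p = 0.00238). The repressor ken rose by 1.23. On the juvenile hormone side, the receptor gene gce on X rose by 0.90, Jhbp14, of a family of hormone-binding proteins, averaged 18.0 ± 2.47 CPM in CDXX and 3.66 ± 2.09 CPM in CDXY, and Kr-h1, the hormone's main target gene, fell by 0.84. Of 23 steroid and juvenile hormone genes tested, among them those for hormone synthesis, breakdown, binding and response, 8 rose and 2 fell. The adjusted p of Kr-h1 was 0.0126 and became 0.0509 without CDXX replicate 4 (edgeR QL). Salivary gland markers, many of them also ecdysone targets, fell in the same libraries (38.2 to 47.1 CPM in CDXX and 141 to 149 CPM in CDXY), and their part in the ecdysone counts was not tested.

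Of 23 genes of sex determination and X dosage compensation 4 rose and 8 fell, the falls numbering 5 with scaling factors from genes off X and 2L and the rises 2 without CDXX replicate 6 or CDXY replicate 4. The noncoding RNA roX1, which marks the compensated male X, was at 338, 354 and 635 CPM in CDXX and 122, 221 and 243 CPM in CDXY (edgeR QL adjusted p = 0.02), and its call ended without CDXX replicate 6 or CDXY replicate 4. Among the proteins of the compensation complex, the acetyltransferase mof on X rose by 0.42, and the helicase mle on 2R fell to 96.9 ± 2.98 CPM in CDXX against 138 ± 2.7 CPM in CDXY. The RNA methylation factor vir, needed for female splicing of Sxl, fell by 0.49. The neuronal sex determination gene fru (FBgn0004652, 3R:18414273-18545586) was at 159, 169 and 207 CPM in CDXX and 28.9, 39.2 and 58.2 CPM in CDXY, far apart, with a log2 fold change of 2.08 ± 0.32 (SE, edgeR QL adjusted p = 0.000507). Both groups were labelled female. Of 17 clock genes 3 rose and 4 fell, with the activator Pdp1 at 208 ± 25.3 CPM in CDXX and 85.7 ± 9.15 CPM in CDXY and the kinase dco at 153 ± 9.81 CPM in CDXX and 244 ± 27.2 CPM in CDXY.

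More matrix genes rose than fell. Of 25 basement membrane and integrin genes 11 rose, 1 fell and 13 were not called, and 7 rose in the fit of only these groups. All 4 on X rose, against 57.6% of all X genes. Elsewhere 7 of 21 rose, against 15.7% of all genes off the X. Off X and 2L 3 of 14 rose (median 0.27), also against 15.7% of all genes there. Perlecan, encoded by trol (FBgn0284408, X:2470460-2545427), was at 1597, 1669 and 1715 CPM in CDXX and 475, 185 and 350 CPM in CDXY, a log2 fold change of 2.30 ± 0.37 (SE, edgeR QL adjusted p = 0.000654). The laminin LanA averaged 598 ± 118 CPM in CDXX and 159 ± 90.4 CPM in CDXY, and the integrin if averaged 149 ± 3.65 CPM in CDXX and 51.9 ± 20.7 CPM in CDXY. The matrix receptor Dg was the 1 that fell (-0.33). Hemocyte markers, whose cells are a known source of such proteins, summed to 435, 421 and 2576 CPM in the CDXX libraries and 340, 159 and 696 CPM in CDXY. Muscle markers, whose cells also make integrins, summed to 477, 989 and 615 CPM in CDXX and 471, 409 and 446 CPM in CDXY. The part of either in the matrix counts was not tested.

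Detoxification enzymes rose off the X, where 26 of 41 P450 and UDP-glycosyltransferase genes were higher and none lower (median 1.35). Cyp12b2 averaged 23.9 ± 6.57 CPM in CDXX and 4.36 ± 1.42 CPM in CDXY and Ugt302C1 averaged 36.9 ± 7.17 CPM in CDXX and 5.62 ± 2.62 CPM in CDXY. Of 27 immune genes 10 rose and none fell, and 5 rose without CDXY replicate 5. By DESeq2 13 rose and 3 fell, and edgeR called 2 falls without ribosomal RNA genes and 1 with batch as a block. The NF-kappaB factors Dif and dl averaged 37.0 ± 6.89 and 31.8 ± 4.86 CPM in CDXX and 14.1 ± 3.10 and 11.3 ± 3.16 CPM in CDXY, and the intracellular peptidoglycan sensor PGRP-LE rose by 1.06. Of 34 cuticle and chitin genes 7 rose and 4 fell, with 3 and 2 rises without CDXX replicate 5 and CDXY replicate 5 and 2 falls without CDXX replicate 4 or 6 or CDXY replicate 4 or 5. The elastic cuticle protein resilin was low in both groups, at 2.87 ± 1.13 CPM in CDXX and 0.297 ± 0.179 CPM in CDXY, and the chitin deacetylase Cda5 averaged 10.8 ± 1.32 CPM in CDXX and 20.3 ± 2.57 CPM in CDXY. Among 11 genes linked to neuronal activity, 4 rose and 3 fell. Arc1 (FBgn0033926, 2R:14357927-14360297), which forms RNA-carrying capsids, was at 1222, 1409 and 1031 CPM in CDXX and 338, 342 and 457 CPM in CDXY, and the X-linked CrebB rose by 0.63. Of 180 long noncoding and antisense RNAs 29 rose, 13 of them on X, and 11 fell, the falls numbering 20 without CDXX replicate 5 and 6 without CDXY replicate 5.

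**Figure D3:**
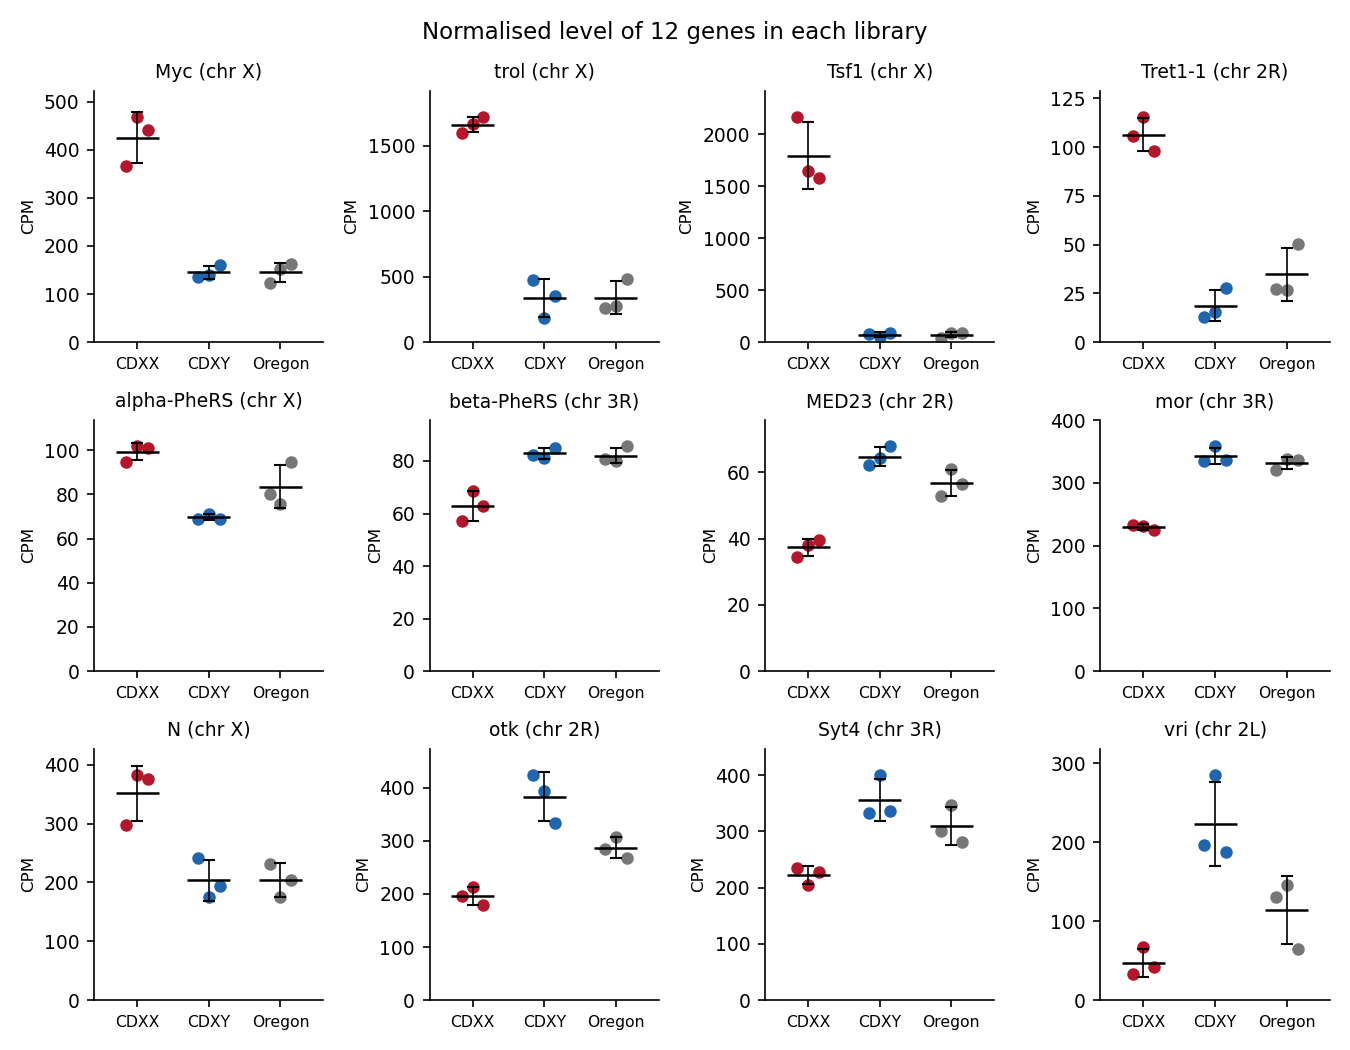
Level in CPM of 12 genes in each library of CDXX, CDXY and Oregon (points), with mean and SD over 3 libraries (black). CDXX and CDXY libraries do not overlap in any panel. For trol, Myc and N the CDXY and Oregon levels are close, and for otk and vri the CDXY mean lies above that of Oregon.

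Set against Oregon, CDXX differed in 3173 genes (35.3%) and CDXY in 77 (0.857%). Both comparisons use the same Oregon libraries, so their values are given side by side only. For some groups the distance lay on the CDXX side. Mediator and polymerase II had medians of -0.32 in CDXX and -0.05 in CDXY relative to Oregon, P450 and UDP-glycosyltransferase genes 1.45 in CDXX and -0.08 in CDXY, and basement membrane genes 0.94 in CDXX and 0.13 in CDXY. Single P450 and UDP-glycosyltransferase genes did move in CDXY, where 11 of 47 had an unadjusted edgeR p under 0.05 against Oregon. After adjustment edgeR called 0 of them and DESeq2 2. Myc stood at 1.55 in CDXX and 0.00 in CDXY, and trol at 2.29 in CDXX and -0.02 in CDXY. For others the medians of CDXX and CDXY lay on opposite sides of Oregon. Axon guidance genes had medians of -0.22 in CDXX and 0.29 in CDXY, glycolytic genes 0.56 in CDXX and -0.81 in CDXY, and sugar supply genes 1.04 in CDXX and -0.68 in CDXY. Between CDXY and Oregon, however, edgeR called 1 of the 46 axon guidance genes (DESeq2 2). Neither tool called any of the 14 glycolytic or 17 sugar supply genes. The unadjusted edgeR p was under 0.05 for 13 of the 46 axon guidance genes and for 4 genes in each of the sugar lists. Over all genes tested it was under 0.05 for 1022 of 8981. In these lists 9 of 46 axon guidance genes were lower and 2 of 14 glycolytic genes were higher in CDXX than in Oregon. Of all genes 16.6% were lower and 18.7% higher in CDXX than in Oregon, so both counts lay near the share of all genes. Both were fewer than against CDXY, a difference that was not itself tested. The transcription factor vri stood at -1.27 in CDXX and 0.97 in CDXY relative to Oregon (edgeR QL adjusted p = 0.0408 and 0.434). The age of Oregon is not given, so this order cannot be tied to genotype or age.

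T2L and C2L brains were also taken at 8 and 5 days, and the comparison T2L over C2L shares no library with CDXX over CDXY. Off X and 2L, 910 genes rose and 1409 fell in CDXX of 5804 tested (15.7% and 24.3%), and 188 rose and 284 fell in T2L (3.24% and 4.89%). Across these 5804 genes the fold changes had a Pearson correlation of 0.43, given as a description since genes are not independent and the batches were shared. Of the genes called in both, 88 were higher and 138 lower in both, and 19 went opposite ways. Idgf3 and Idgf2 on 2L and Arc1 on 2R were among genes called higher in both, Arc1 by 1.69 in CDXX and 2.02 in T2L. The difference between the comparisons was itself significant for 2004 genes (22.3%), and for 594 of 5804 (10.2%) off X and 2L, of which 267 (4.6%) were higher and 327 (5.63%) lower in CDXX than in T2L.

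Several neuronal wiring genes off X and 2L departed from T2L, where 5.63% of all genes were called lower in the difference. The test of the difference called 7 of 33 Dpr, DIP, Beat and Side genes, all lower in CDXX (list medians -0.44 in CDXX and 0.09 in T2L). It called 5 of 32 axon guidance genes, again all lower (medians -0.56 in CDXX and -0.13 in T2L). Ptp69D had log2 fold changes of -0.71 in CDXX and -0.05 in T2L (edgeR QL adjusted p of the difference 0.00888), and beat-IIa of -1.0 in CDXX and 0.21 in T2L (edgeR QL adjusted p of the difference 0.00654). The elongation factor eEF1alpha2 changed by -1.24 in CDXX and 0.05 in T2L (edgeR QL adjusted p of the difference 0.00341). Among all genes off X and 2L, the lowest adjusted p-values of the difference with CDXX above T2L included those of the piRNA helicase spn-E (1.14 in CDXX and -0.74 in T2L), the serpin Spn55B (0.54 in CDXX and -0.16 in T2L), CG10738 (1.14 in CDXX and -0.89 in T2L) and the ribosomal protein gene RpS15Ab (0.79 in CDXX and -0.08 in T2L), which has a near-identical copy. Those with CDXX below T2L included CG10479 (-1.17 in CDXX and 0.22 in T2L), CG14312 (-0.92 in CDXX and 0.53 in T2L) and wrapper (-0.35 in CDXX and 0.38 in T2L). No glycolytic gene off X and 2L passed the test of the difference (medians 1.42 in CDXX and 0.51 in T2L). None of 21 spliceosome genes (medians -0.37 in CDXX and -0.24 in T2L) or 5 CCT genes (-0.32 in CDXX and -0.29 in T2L) did. It called 2 of 14 aminoacyl-tRNA synthetases, both higher in CDXX (medians -0.13 in CDXX and -0.24 in T2L). Of 32 Mediator and polymerase II genes it called 1, lower in CDXX (medians -0.35 in CDXX and -0.16 in T2L).

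**Figure D4:**
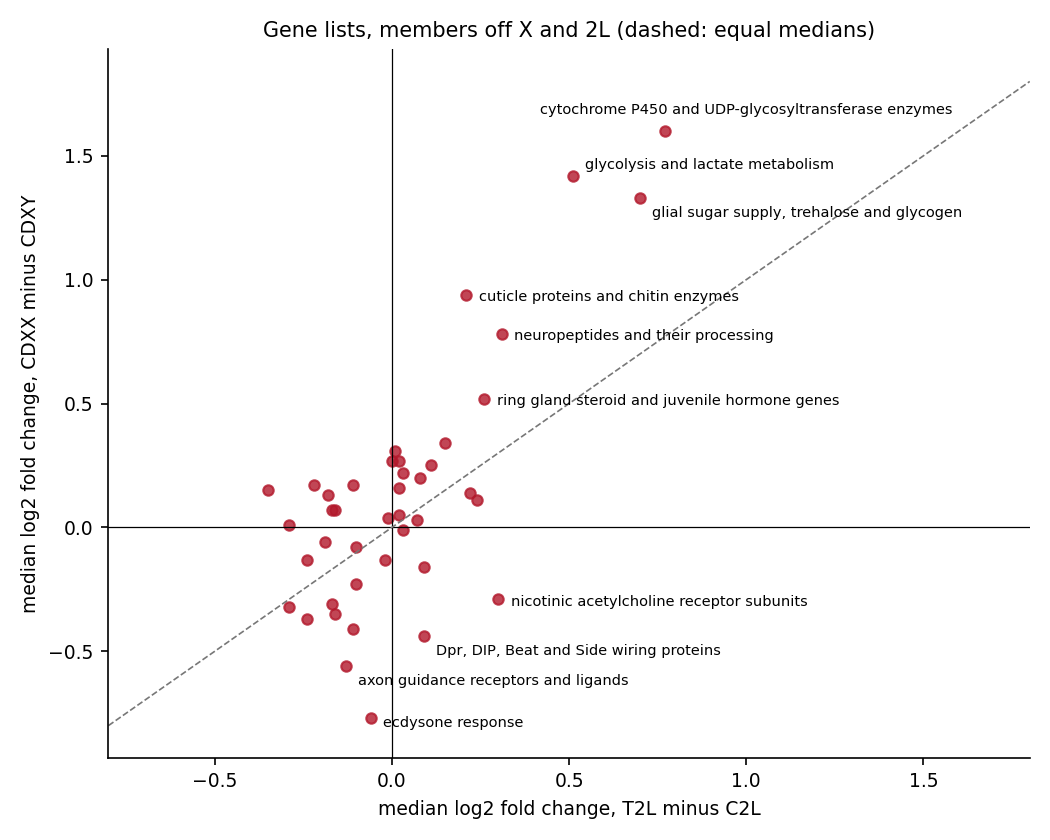
Median log2 fold change of each gene list in CDXX over CDXY (vertical) and in T2L over C2L (horizontal), for lists with at least 5 members off X and 2L and using only those members. P450 and UDP-glycosyltransferase, glycolytic and sugar supply genes lie at the upper right, above the dashed line of equal medians, and wiring, guidance and ecdysone lists lie low on the vertical axis and near 0 on the horizontal.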

How the data were processed

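Polyadenylated RNA was measured in larval brains at 3 brains per library. The authors deposited raw read counts, whole numbers for 8990 genes in 15 libraries. The submitters' processing notes name Trim Galore, STAR 2.7.10a, featureCounts and the build dm6. No source used here gives the strand setting or the gene filter, and no gene had a mean count under 27. Symbols and positions came from an annotation of the same assembly and matched 8939 genes by identifier. Without a stated strand setting, reads of overlapping, antisense and near-identical genes cannot be assigned with certainty. Among the genes described, exons of Myc, mor, Hr4, Zw10, Mad1, MED22, MED14, Prp8, Sf3a1, eIF2alpha, eIF2Bbeta, CG2680, Grip91, Grip128, Psf3, Klc, roX1, Ptth, gce, UGP, Zw, CG8036, Fum1, Shmt, Cyp12b2, Vha100-1, CrebB, Dif, mRpS14, Mcm3, vir, nAChRalpha3, Nct, axo and repo overlap a gene on the other strand.

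Genes were tested with edgeR 4.0.16 in R 4.3.3 (TMM, filterByExpr, robust quasi-likelihood F test, 1 mean per group over all 15 libraries, 8981 genes tested, Benjamini-Hochberg adjustment, called under 0.05). The biological coefficient of variation was 24.9%. Squared differences between libraries of a group were 61.4 to 225 times what sampling gives, and each library was counted as its own replicate. The numbers of batches 4, 5 and 6 pair libraries by day, per the series design text, although only 16 of 30 same-batch pairs correlated above 0.1 (median 0.14, against -0.042 between batches). A fit blocked by batch was one alternative. Others were DESeq2 1.42.0 and its size factors, scaling on genes off X and 2L, other filters, the fit of only the groups compared and leaving out each library. Leaving out 16 ribosomal RNA genes was added after the data were seen. P-values measure the spread between pools and days. Scripts were tested on simulated data.

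The comparison, 43 gene lists and 11 marker lists were chosen with earlier results of these data known. Named genes are the 8 calls each way off X with the lowest adjusted p and at least 2-fold change, the 6 largest each way on X, up to 4 each way per list, and 5 each way in the difference from T2L over C2L. They needed no overlap between groups, except in that difference, and outside the lists a mean of at least 5 CPM. Other members named in passing, such as repo and ph-d, were picked after their values were seen. Promoter motifs were not analysed here.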

Additional observations from a re-analysis of the deposited data

Results flagged for a closer look

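The comparison CDXX over CDXY differed from T2L over C2L, by a test of the difference itself (edgeR QL, adjusted p under 0.05), for 2004 genes, and for 594 genes off X and 2L. The values below are this difference in log2 units, (CDXX minus CDXY) minus (T2L minus C2L), for the genes named above. On the X, where CDXX but not T2L has an added copy, the difference was positive for all the named genes that passed. It was largest for CG15784 (3.17), CG8051 (2.29), Tsf1 (2.08), trol (1.93) and Myc (1.47). It was 1.32 for Ndc80, 1.15 for N and mRpS14, 1.14 for Mcm6, 1.11 for mRpL49, 1.06 for Cdc45, 1.05 for crn, 1.04 for Zw, 1.02 for PGRP-LE, 1.01 for Grip128 and 1.00 for Psf3. Between 0.70 and 1.00 lay Ahcy (0.90), Mcm3 (0.86), Idh3a and Tim8 (0.84), Zw10 (0.83), CrebB (0.82), MED22 and eIF2Bbeta (0.80), Fum1 and gce (0.78), LysRS, alpha-PheRS and Grip91 (0.77), eIF2alpha and VhaAC39-1 (0.76), and Nrg and bys (0.71). The lowest were Bap60 (0.54), Tom40 (0.53), mof (0.51), sw (0.50), Polr2A (0.48) and CCT6 (0.47).

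On 2L, where T2L has the added copy, the difference was negative for Cda5 (-2.55), Ptth (-2.17), DIP-epsilon (-1.57), Eaat2 (-1.54), erm (-1.19), Hr39 (-0.99), kuz (-0.96), MED15 (-0.91), Liprin-alpha (-0.86), dac (-0.79) and Wdr62 (-0.78), and positive for dmGlut (2.17).

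On the other arms the copy number was the same in both comparisons. Neuronal wiring and signalling genes were below T2L: beat-IIa (-1.21), side-VII (-0.94), Ptp69D (-0.65), gogo (-0.64), Syt4 (-0.59), Klc (-0.58) and fra (-0.41). So were the glial genes wrapper (-0.73) and Nrx-IV (-0.53), the nuclear and division genes MED23 (-0.59), pins (-0.46), Mad1 (-0.41) and mor (-0.31), and the lipid genes fabp (-0.91) and bmm (-0.77). Further negative differences were found for CG14598 (-2.92), CG14312 (-1.45), CG10479 (-1.39), eEF1alpha2 (-1.29), bip1 (-1.14), Ptr (-1.08), CG7650 (-0.88), twz (-0.82) and Vha100-1 (-0.66). Genes above T2L were resilin (4.06), Ocho (2.24), CG10738 (2.04), spn-E (1.88), Kaz1-ORFB (1.84), CG13229 (1.76), Capa (1.62), fru (1.37), Non1 and SP1173 (0.92), RpS15Ab (0.87), IscU (0.72), Spn55B (0.70) and pAbp (0.61). The level of resilin was under 5 CPM in all CDXX and CDXY libraries.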

How the results depend on the processing

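The count of 3942 genes called in CDXX over CDXY was 4298 by DESeq2, 4218 with batch as a replicate block, 3981 without ribosomal RNA genes and 3220 in a fit of only these groups, and 2876 to 3834 when a library was left out. Of the 3942 genes, 3843 kept their call and direction under the block. With scaling on the arms other than X and 2L, 2381 rises and 1461 falls were called, a share of 62.0% upward against 52.5%. The gap between the X median and the median off X ran from 0.519 to 0.541 over the analyses leaving out a library. Of 163 named genes, 144 kept their side of the threshold in all alternatives. CDXX over Oregon had 1877 calls in a fit of only those groups, against 3173. CDXY over Oregon, with 77 calls, had 176 by DESeq2, 14 in a fit of only those groups and 47 to 65 when a library was left out, the lowest without Oregon replicate 6. The cause of these shifts was not tested. With 3 libraries a group, exact tests could not go below 0.1.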
